A study of Macaca mulatta with 8 samples.

Results

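The phagocyte NADPH oxidase is described here through the 5 subunit genes CYBA, CYBB, NCF1, NCF4 and RAC2. They were taken by symbol from count tables of 35432 genes. All 5 passed the filter on low counts, among 12131 genes tested. The counts come from 8 libraries of primary microglia, cultured from frontal subcortical white matter of 4 adult rhesus macaques. From each animal, 1 culture was exposed to 10 µg/mL uLPS for 16 h. The other was exposed in the same way after 1 h with 5 µM MRS2578. uLPS is a purified lipopolysaccharide that activates TLR4, whereas MRS2578 is a selective antagonist of P2RY6, which senses extracellular nucleotides. The donors were the males R07110, aged 13 years, and R12016, aged 9 years, and the females R02046, aged 19 years, and R14143, aged 6 years. All cultures received serum and M-CSF and were exposed on day 7. The labels do not say whether the uLPS cultures held the solvent of MRS2578, for which the study's methods describe DMSO controls. Unexposed cultures and cultures with MRS2578 alone were not analysed here, so every value is a level or a difference under uLPS.

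The oxidase is a membrane enzyme that passes electrons from NADPH to oxygen and so makes superoxide. CYBB (gp91phox) carries the redox centres and CYBA (p22phox) is its membrane partner, and both form flavocytochrome b558. NCF1 (p47phox) is the cytosolic organizer that binds CYBA once it is phosphorylated, and NCF4 (p40phox) binds phosphatidylinositol 3-phosphate. RAC2 is the GTPase of blood cells that joins the complex when it is loaded with GTP. In macrophages and microglia the enzyme serves killing and signalling, and its activity depends on assembly, which transcript counts do not show.

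The conditions of 1 donor were uncertain. The study's supplementary list of expression values has 8 columns, and each is proportional to 1 deposited library. For 6 columns that library carried the same condition in its label, whereas the 2 columns of R02046 matched the libraries of the opposite condition. The deposited labels were therefore the main assignment, and the fitted differences are also given with the 2 libraries of R02046 exchanged and without this donor. Values in CPM are as labelled unless stated.

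CYBB lies on chromosome X from 37571601 to 37605643 on the plus strand of the Mmul_10 assembly. NCF1 lies on chromosome 3 from 47131719 to 47147772 on the plus strand. NCF4, from 14692626 to 14711565 on the minus strand, and RAC2, from 14298179 to 14344082 on the plus strand, are both on chromosome 10. CYBA is on chromosome 20 from 75658257 to 75666037 on the minus strand, where RefSeq lists it under the gene identifier 696748. No other RefSeq gene overlaps any of the 5. The 150 bases upstream of the RefSeq start are shown for CYBB and NCF1, whose differences between the conditions had the same sign as each other in each of 4 donors, and for CYBA and NCF4, of which the same holds. Capitals mark GAAANNGAAA, the letters of an interferon-response type of element, searched on both strands.
CYBB: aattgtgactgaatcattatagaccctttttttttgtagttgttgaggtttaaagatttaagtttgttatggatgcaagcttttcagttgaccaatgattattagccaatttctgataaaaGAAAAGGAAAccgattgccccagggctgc
NCF1: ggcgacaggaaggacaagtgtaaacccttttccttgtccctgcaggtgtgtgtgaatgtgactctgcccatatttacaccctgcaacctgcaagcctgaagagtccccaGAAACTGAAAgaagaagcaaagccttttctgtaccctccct
CYBA: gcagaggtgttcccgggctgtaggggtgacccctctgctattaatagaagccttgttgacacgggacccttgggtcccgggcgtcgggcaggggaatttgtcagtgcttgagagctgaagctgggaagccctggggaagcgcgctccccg
NCF4: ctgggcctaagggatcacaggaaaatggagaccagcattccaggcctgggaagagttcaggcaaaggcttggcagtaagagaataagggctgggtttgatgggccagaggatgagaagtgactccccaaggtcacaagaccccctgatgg

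These windows are chrX:37571451-37571600, chr3:47131569-47131718, chr20:75666038-75666187 and chr10:14711566-14711715, each printed 5′ to 3′ on the strand of its gene. CYBB had 1 match on the plus strand, 29 to 20 bases before its start. NCF1 had 1 match on the plus strand, 41 to 32 bases before its start. The same letters were in 373 of 20783 upstream windows of this length, which is 1.79%. CYBA, NCF4 and RAC2 had no match. The letters GAGGAA, a form of the sites for the myeloid factor SPI1, were in 13% of all windows and in none of the 4 printed here. Other forms of SPI1 site were not searched, so their absence is not shown. The RAC2 window held GAGGAA 2 times and is not printed, because the RefSeq transcript is partial at this locus. A match is a run of letters and was not tested as a binding site.

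All 5 transcripts were abundant. Total counts per library were between 9231109 and 32790348, and the member genes had between 1043 and 28257 counts in a library. Levels are given as CPM, the count relative to the library total after TMM scaling, which corrects these totals for composition. By mean CPM over the 8 libraries, CYBB ranked 176th of the 12131 genes tested, CYBA ranked 518th and RAC2 ranked 964th. NCF1 ranked 1126th and NCF4 ranked 1937th. These ranks are not per length and favour the long CYBB transcript.

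**Figure D1:**
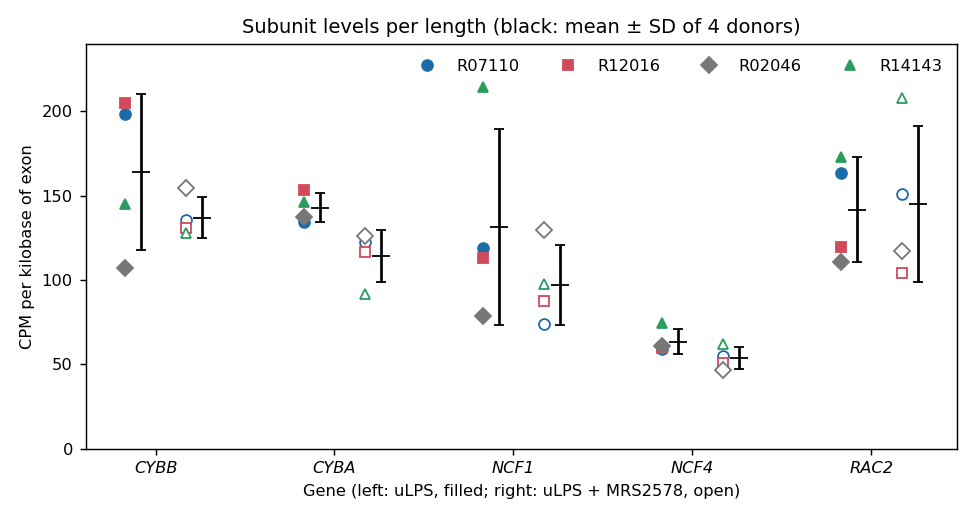
Level of each subunit in CPM per kilobase of exon in the 8 libraries. Filled symbols are uLPS and open symbols uLPS with MRS2578, symbol shapes are donors, and black bars are the mean ± SD of 4 donors. NCF4 was lowest, with means of 63.5 and 53.7 CPM per kilobase, and the other 4 genes overlapped.

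Per kilobase of RefSeq exon, 4 of the 5 subunits had similar levels and NCF4 was lower, as the plot of levels per length shows. With uLPS, CYBB was at 164 ± 46.3 CPM per kilobase (SD, n = 4) and CYBA was at 143 ± 8.64. RAC2 was at 142 ± 31.1, NCF1 at 131 ± 58.3 and NCF4 at 63.5 ± 7.36 CPM per kilobase. NCF4 was the lowest of the 5 in 8 of 8 libraries. The neighbours in this order did not separate among the other 4 genes. CYBB was above NCF1 in 7 of 8 libraries and above CYBA in 6 of 8, but above RAC2 in 4 of 8. With MRS2578 the levels per kilobase were 145 ± 46.3 for RAC2, 137 ± 11.9 for CYBB, 114 ± 15.6 for CYBA, 97.2 ± 23.6 for NCF1 and 53.7 ± 6.43 for NCF4. With R02046 exchanged, CYBB was at 176 ± 30.2 CPM per kilobase with uLPS and 125 ± 12.5 with MRS2578, and NCF1 was at 144 ± 47.5 and 84.5 ± 10.3. NCF4 was the lowest of the 5 under every assignment. The place of CYBA depended on the length used. Its 5 RefSeq transcripts were between 740 and 1906 bases, and its mean over the 8 libraries was 129 CPM per kilobase over all exons but 429 with the shortest transcript. The length of RAC2 is uncertain too, because its RefSeq transcript is partial.

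The donors differed least in CYBA and most in RAC2. The SD of the 4 donor means in log2 CPM was 0.0944 for CYBA, a spread smaller than that of all but 8.58% of genes tested. It was 0.15 for NCF4, 0.18 for CYBB and 0.28 for NCF1, beside a median of 0.25 over all genes tested. For RAC2 it was 0.37, and here the median size of the difference between the conditions within a donor was 0.15. RAC2 was the exception, since in the other 4 genes the median size of the within-donor difference was larger than this SD. It was 0.54 for CYBB, 0.70 for NCF1, 0.26 for CYBA and 0.25 for NCF4.

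The comparison of uLPS with and without MRS2578 asks whether subunit transcripts differ with this P2RY6 antagonist while TLR4 is active. The study describes the compound as selective but not fully specific, and its effects outside P2RY6 were not tested. With the deposited labels no subunit passed the test, and 4 of 5 had lower fitted levels with MRS2578, beside 52.1% of genes tested. With R02046 exchanged or left out, NCF1 and CYBB had the largest fitted differences, and in the edgeR test both still missed the adjusted threshold. The fitted difference of RAC2 was near 0 under all 3 assignments. In bulk RNA, fewer oxidase-expressing cells and less transcript per cell cannot be told apart.

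**Figure D2:**
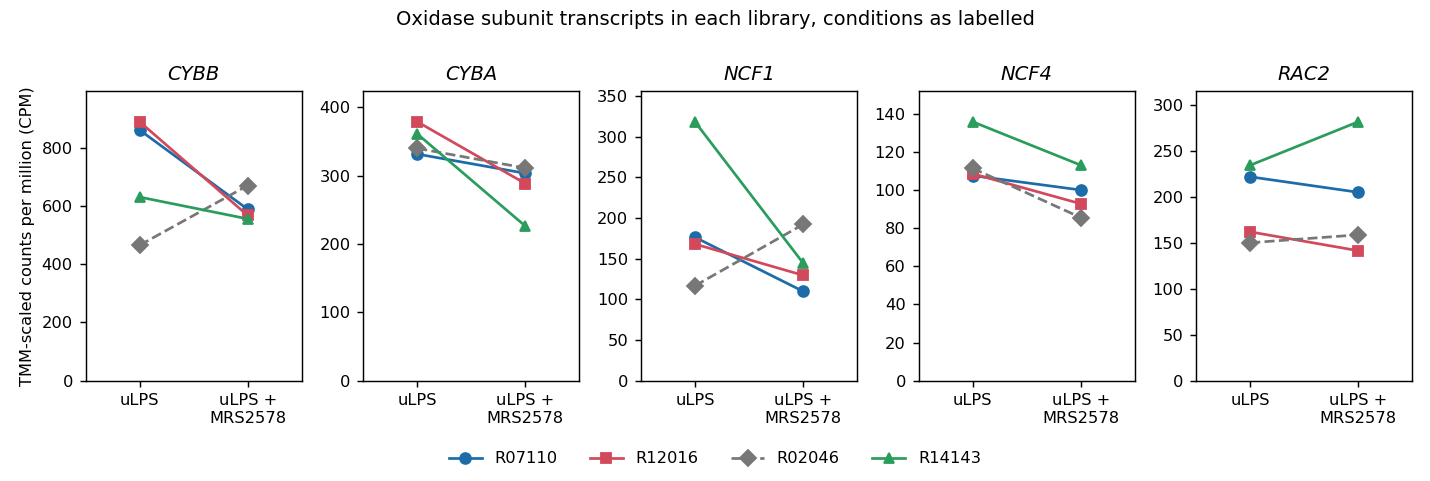
TMM-scaled CPM of each subunit in uLPS and in uLPS with MRS2578, joined by donor, with conditions as labelled and each axis starting at 0. The dashed grey line is R02046, which rises for CYBB and NCF1 where the other 3 donors fall.

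CYBB, the catalytic subunit, had 861 CPM with uLPS in R07110 and 889 in R12016, against 465 in R02046 and 630.4 in R14143. With MRS2578 it had 588, 567, 670.0 and 555 CPM in the same order. As labelled, R02046 was the only donor in which CYBB was higher with MRS2578, and its uLPS library was the lowest of the 8, so the groups overlapped. The within-donor differences in log2 CPM were -0.55, -0.65, 0.53 and -0.18 in the same order. The group means were 711 ± 201 and 595 ± 51.7 CPM (SD, n = 4). The fitted log2 fold change was -0.22 (SE 0.20, edgeR adjusted p = 0.906), where the within-donor differences lay on both sides of 0. With R02046 exchanged it was -0.48 (SE 0.10, edgeR adjusted p = 0.0928), and all 4 MRS2578 libraries lay below all 4 uLPS libraries, as for 1.56% of genes tested. Without R02046 it was -0.46 (SE 0.13, edgeR adjusted p = 0.249).

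CYBA, the membrane partner of CYBB, had 332, 379, 340.0 and 361 CPM with uLPS in R07110, R12016, R02046 and R14143. With MRS2578 it had 303, 288, 311 and 226 CPM. As labelled, CYBA was lower with MRS2578 in 4 of 4 donors and the groups did not overlap. Such a full separation towards lower values occurred in 0.412% of genes tested. The differences in log2 CPM were -0.13, -0.39, -0.13 and -0.67. The means were 353 ± 21.3 and 282 ± 38.6 CPM, and the log2 fold change was -0.33 (SE 0.12, edgeR adjusted p = 0.878). The unadjusted p was 0.0316 with a 95% interval from -0.62 to -0.04. With R02046 exchanged the log2 fold change was -0.27 (SE 0.13, edgeR adjusted p = 0.364) and the groups overlapped. Without R02046 it was -0.40 (SE 0.13, edgeR adjusted p = 0.294).

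NCF1, the organizer, had 177, 168, 117 and 319 CPM with uLPS in the same order of donors. With MRS2578 it had 110.0, 130, 192 and 145 CPM. The uLPS library of R14143 was far above the other 7, and R02046 was again the donor that went the other way as labelled. The differences in log2 CPM were -0.68, -0.37, 0.72 and -1.14, and -1.14 is the widest difference of any subunit in any donor. In percent of the uLPS level, the NCF1 difference was -37.7 in R07110, -22.8 in R12016, -54.6 in R14143 and 64.6 in R02046. The means were 195 ± 86.5 and 144 ± 35.0 CPM, with a log2 fold change of -0.38 (SE 0.28, edgeR adjusted p = 0.894). With R02046 exchanged it was -0.73 (SE 0.12, edgeR adjusted p = 0.0526). The 4 MRS2578 libraries then lay below the 4 uLPS libraries, as for 1.56% of genes tested. Without R02046 the log2 fold change was also -0.73 (SE 0.16, edgeR adjusted p = 0.180). NCF1 has near-identical pseudogene copies in the human genome. Only uniquely placed reads were counted here, and copies in the macaque genome were not examined.

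NCF4, which binds the phagosome lipid, had 107, 108, 111 and 136 CPM with uLPS and 99.9, 92.7, 85.5 and 113 CPM with MRS2578. It was lower in 4 of 4 donors as labelled, although the MRS2578 library of R14143 lay among the uLPS libraries. The differences in log2 CPM were -0.10, -0.23, -0.38 and -0.26. The means were 116 ± 13.4 and 97.8 ± 11.7 CPM, with a log2 fold change of -0.24 (SE 0.09, edgeR adjusted p = 0.878). The unadjusted p was 0.0324. With R02046 exchanged, that donor became the only one with more NCF4, and the log2 fold change was -0.06 (SE 0.12, edgeR adjusted p = 0.854). Without R02046 it was -0.20 (SE 0.09, edgeR adjusted p = 0.428).

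RAC2, the GTPase, had 222, 162, 150.05 and 234 CPM with uLPS and 205, 141, 159 and 282 CPM with MRS2578. Donors R07110 and R14143 were above R12016 and R02046 in both conditions. The differences in log2 CPM were -0.11, -0.20, 0.08 and 0.26, and the means were 192 ± 42.2 and 197 ± 62.7 CPM. The log2 fold change was 0.01 (SE 0.11, edgeR adjusted p = 0.993), with a 95% interval from -0.25 to 0.27. It was -0.03 (SE 0.10) with R02046 exchanged and -0.02 (SE 0.12) without R02046. The edgeR adjusted p was 0.911 and 0.977. As a fold, the interval with the deposited labels is from 0.843 to 1.20, so smaller changes of RAC2 could not be seen.

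**Figure D3:**
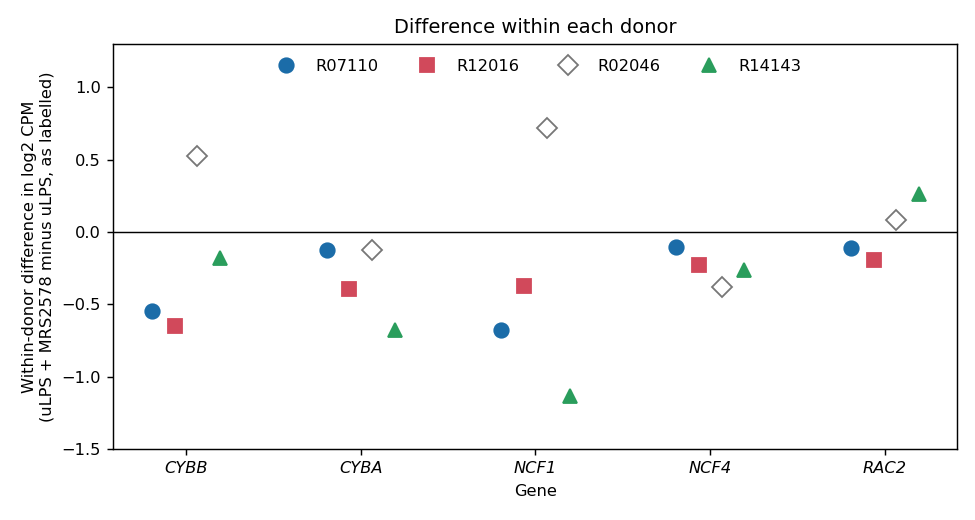
Difference in log2 CPM between uLPS with MRS2578 and uLPS alone for each subunit and donor, as labelled; the open diamond is R02046. CYBA and NCF4 lie below 0 in 4 of 4 donors, and CYBB and NCF1 in the 3 donors other than R02046.

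Over the 5 subunits, 0 passed the adjusted threshold of 0.05 when the labels were kept, where the share of all genes tested was 0%. At an unadjusted p under 0.05 the edgeR test gave 2 subunits, CYBA and NCF4, beside 5.14% of genes. With R02046 exchanged, 0 of 5 passed the adjusted threshold, beside 0.618% of genes or 75 genes. At an unadjusted p under 0.05 there were 2, CYBB and NCF1, beside 16.4% of genes. Without R02046, 0 of 5 passed, beside 0% of 12295 genes, and CYBA, CYBB and NCF1 had an unadjusted p under 0.05, beside 13.6%. The pair of subunits nearest to the threshold was thus different with the labels and with the exchange.

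**Figure D4:**
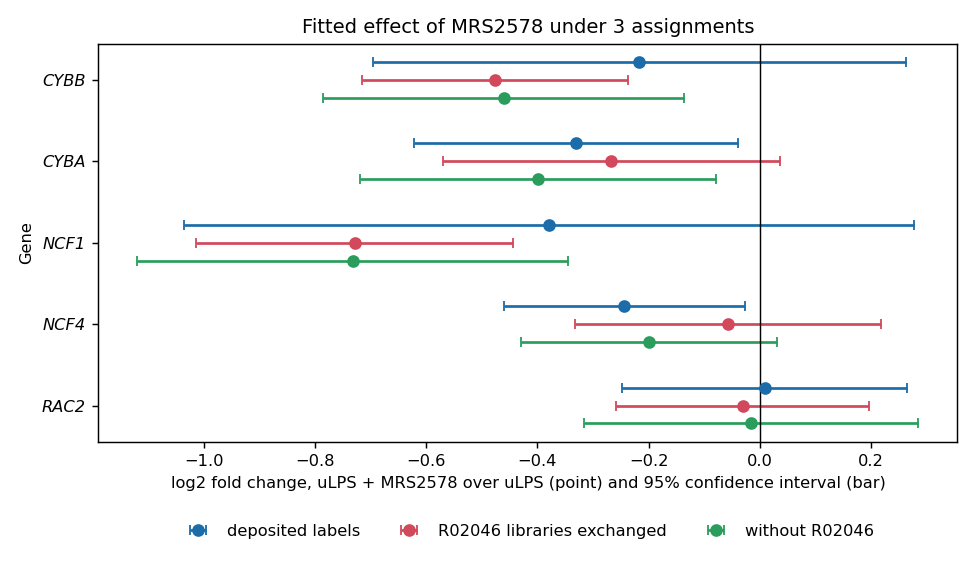
Log2 fold change of each subunit with its 95% confidence interval from edgeR, for the deposited labels, with the R02046 libraries exchanged and without R02046. The NCF1 interval runs from -1.04 to 0.28 as labelled and from -1.01 to -0.44 with the exchange, while RAC2 stays around 0.

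The median log2 fold change of the 5 subunits was -0.24 with the labels, -0.27 with the exchange and -0.40 without R02046. The median over all genes tested was -0.01, 0.00 and -0.00. Fitted values were below 0 for 5 of 5 subunits with the exchange, beside 49.8% of genes. As labelled, CYBA and NCF4 were lower with MRS2578 in 4 of 4 donors, beside 6.49% of genes. With the exchange these were CYBB and NCF1, beside 13.2%. In the 3 donors other than R02046, whose labels are not in doubt, 4 subunits were lower in each donor, beside 19.8% of genes, and RAC2 was the exception, being higher in R14143.

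DESeq2 gave other calls than edgeR for CYBB and NCF1. With the exchange its Wald test gave NCF1 a log2 fold change of -0.74 (adjusted p = 3.85e-05) and CYBB -0.48 (adjusted p = 0.0016), when 3.66% of genes passed towards lower values. Without R02046 it gave NCF1 -0.74 (adjusted p = 0.00259) and CYBB -0.47 (adjusted p = 0.0467), beside 2.57% of genes lower. With the deposited labels it called no subunit. In edgeR with the exchange, leaving out R14143 brought CYBB to -0.58 (adjusted p = 0.0158) and NCF1 to -0.59 (adjusted p = 0.0168), beside 4.22% of genes lower.

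The ratio of 2 subunits in a library does not depend on library scaling. Of the possible pairs only 4 were chosen, and the adjustment covers these 4 alone. The log2 ratio of CYBB to RAC2 differed between the conditions by -0.43 in R07110, by -0.45 in both R12016 and R14143, and by 0.45 in R02046. The 4 donors thus had nearly the same size of difference, with R02046 alone on the other side of 0 as labelled. With the exchange the mean was -0.45 ± 0.0077 (SD, n = 4; exact two-sided sign-flip permutation p = 0.125, adjusted over 4 ratios 0.167), and 0.125 is the smallest p that 4 donors allow. As labelled the mean was -0.22 ± 0.45 (exact permutation p = 0.375, adjusted 0.875). The ratio of NCF1 to NCF4 differed by -0.58, -0.15, 1.0998 and -0.87 in the same order of donors, and NCF1 to RAC2 by -0.57, -0.18, 0.64 and -1.40. The ratio of the flavocytochrome partners, CYBB to CYBA, had no common direction, with -0.42, -0.25, 0.65 and 0.49. It was the only one of the 4 ratios in which R14143 did not go with R07110 and R12016.

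**Figure D5:**
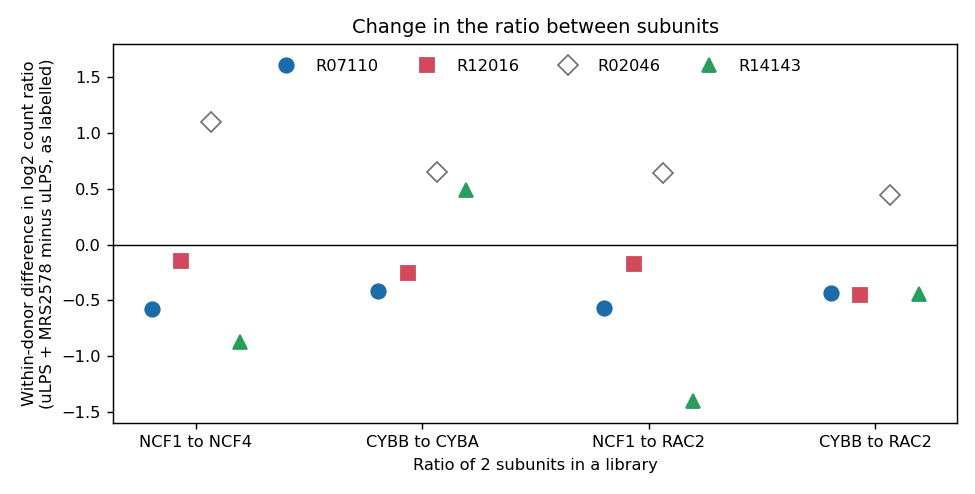
Difference between the conditions in the log2 ratio of 2 subunits within each donor, as labelled; the open diamond is R02046. For CYBB to RAC2 the other 3 donors lie between -0.43 and -0.45, and R02046 lies at 0.45.

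The other NADPH oxidases were at or near 0 counts. Of the 11 genes of the wider oxidase family, 9 did not pass the filter on low counts, among them the catalytic subunits NOX1, NOX3, NOX4 and NOX5, the dual oxidases DUOX1 and DUOX2 and the organizer NOXO1. None of these 9 had more than 7 counts in any library, and NOX3 and NOX5 had 0 in all 8. NOXA1, the activator of NOX1, passed the filter at 1.05 ± 0.33 CPM with uLPS and 2.75 ± 1.98 with MRS2578. Its log2 fold change was 1.36 (edgeR adjusted p = 0.878), and it was 1.34 with the exchange (edgeR adjusted p = 0.129) and 1.57 without R02046 (edgeR adjusted p = 0.161).

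Regulators of assembly were all expressed, and none passed the test. All 27 of them were tested, among them the kinases that phosphorylate NCF1, the exchange factors for RAC GTPases and the chaperone CYBC1. As labelled 20 were lower and 7 higher with MRS2578, and the median log2 fold change was -0.05. With the exchange 26 were lower, beside 49.8% of all genes, and the median was -0.20. At an unadjusted p under 0.05 there were 6, all lower, beside 16.4% of all genes in either direction and 9.59% lower. Without R02046 the median was -0.15. PIK3CG, a phosphoinositide 3-kinase, had the highest mean level, 850 ± 298 CPM with uLPS and 685 ± 102 with MRS2578. Its log2 fold change was -0.25 as labelled and -0.56 with the exchange (edgeR adjusted p = 0.911 and 0.125), and -0.54 without R02046 (edgeR adjusted p = 0.320). ARHGDIA, which holds RAC proteins in the cytosol, had a log2 fold change of -0.12 as labelled, -0.17 with the exchange and -0.19 without R02046. PREX1, a RAC exchange factor, had -0.00, -0.24 and -0.16.

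Of 12 transcription factors known to act on CYBB, 10 were tested and none passed. Their median log2 fold change was -0.24 as labelled and -0.33 with the exchange, and it was -0.38 without R02046. With the exchange 6 were lower at an unadjusted p under 0.05, beside 9.59% of all genes. SPI1, the myeloid factor PU.1, had 511 ± 62.5 CPM with uLPS and 433 ± 23.3 with MRS2578. Its log2 fold change was -0.23 and, with the exchange, -0.29 (edgeR adjusted p = 0.878 and 0.178), and -0.35 without R02046 (edgeR adjusted p = 0.257). NFKB1 had -0.30 and, with the exchange, -0.52 (edgeR adjusted p = 0.881 and 0.0628), and -0.55 without R02046 (edgeR adjusted p = 0.180).

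The enzymes that remove superoxide and peroxide had no common direction. Of 12 genes 11 were tested and none passed, with medians of 0.01 as labelled, 0.02 with the exchange and 0.04 without R02046. SOD2, the mitochondrial superoxide dismutase, was the most abundant with 4371 ± 1735 CPM under uLPS and 3275 ± 661 with MRS2578. Its log2 fold change was -0.35 as labelled and -0.53 with the exchange (edgeR adjusted p = 0.881 and 0.101), and -0.58 without R02046 (edgeR adjusted p = 0.236). The peroxiredoxins PRDX1 and PRDX6 had -0.04 and 0.01 as labelled, 0.02 and -0.05 with the exchange, and -0.01 and -0.02 without R02046.

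The subunits are also expressed by other leukocytes, and of these the markers of neutrophils and lymphocytes were near 0. Monocytes and other macrophages had no list of their own, so their share was not examined. The summed level of 12 neutrophil markers was between 2.13 and 5.85 CPM with uLPS and between 3.62 and 9.84 with MRS2578. Of these, 11 were under 1 CPM in every library, CXCR2 being the exception, and 5, among them ELANE and CEACAM8, had 0 counts throughout. The 12 lymphocyte markers summed to at most 0.840 CPM. The 12 microglia and macrophage markers in the files summed to between 9791 and 11578 CPM with uLPS and between 9502 and 10590 with MRS2578. CSF1R, CD68 and CD14 were high, whereas TMEM119, a marker of resting microglia, was under 1 CPM in every library. By library total, CX3CR1 had means of 0.0992 CPM with uLPS and 0.697 with MRS2578, and P2RY12 had 9.15 and 9.08. This list does not set microglia apart from other macrophages. Markers of endothelial, mural and fibroblast cells summed to between 282 and 1156 CPM with uLPS and between 366 and 645 with MRS2578. Oligodendrocyte markers summed to between 234 and 378 CPM with uLPS and between 233 and 311 with MRS2578. Astrocyte markers summed to between 90.0 and 201 CPM with uLPS and between 110 and 194 with MRS2578. The sums of these 3 lists overlapped between the conditions under every assignment.

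Some markers moved with CYBB and NCF1. The microglia and macrophage sum was between 10588 and 11578 CPM with uLPS and between 9502 and 10590 with MRS2578 when R02046 was exchanged. Without R02046 it was between 11151 and 11578 with uLPS, and so above all MRS2578 libraries. With the exchange 10 of 10 tested microglia markers had log2 fold changes below 0, with a median of -0.12. C1QB, a complement component, had -0.56 (edgeR adjusted p = 0.0744). The astrocyte glutamate transporter SLC1A2 passed the test with the exchange, at -1.22 (SE 0.15, edgeR adjusted p = 0.0328). Its differences in log2 CPM were -1.35, -1.44, 1.41 and -0.71 in R07110, R12016, R02046 and R14143, which are the signs of CYBB and NCF1 in these donors. As labelled SLC1A2 had -0.58 (edgeR adjusted p = 0.901), and without R02046 it had -1.16 (edgeR adjusted p = 0.133). The other tested astrocyte markers did not follow it. With the exchange SLC1A3 had -0.19, GJA1 had -0.09 and GFAP had 0.15. In R07110, R12016 and R02046 the differences of GFAP and GJA1 had the opposite sign to those of SLC1A2. The part of these markers in the differences of the subunits was not tested.

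The genes whose log2 CPM followed each subunit most closely over the 8 libraries were different for each subunit. For CYBB they were ANKRD44, TLR6 and CMTR2, with Pearson r of 0.973, 0.962 and 0.955. For NCF1 they were BCL3, KMT5B and RNF13, with r of 0.968, 0.964 and 0.954. For CYBA they were NSMCE4A, IDNK and RASSF7 (r = 0.955, 0.908 and 0.906), for NCF4 TRADD, HP1BP3 and PIBF1 (r = 0.934, 0.919 and 0.912), and for RAC2 TSPAN18, CEP295 and MCOLN2 (r = 0.983, 0.972 and 0.971). Among the subunits themselves the highest r was 0.57, between NCF4 and RAC2, and CYBB with NCF1 had 0.41. The 8 libraries share 4 donors, and these values describe likeness only.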

How the data were processed

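RNA was measured in 8 microglia libraries from 4 donors. The deposited values are whole-number counts per Ensembl gene, without normalization, made by the authors from unique reads within exons on Mmul_10. The submitters' processing notes name Trimmomatic 0.30, TopHat2 2.0.14, SAMtools 1.3 and HTSeq 0.6.1p1, whereas the study's methods name fastp and STAR, so the aligner is uncertain. The strand setting is not given in the sources used here. Reads placed more than once were dropped, which lowers genes with near-identical copies.

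Counts were analysed in R 4.3.3 with edgeR 4.0.16. Genes were kept by filterByExpr (minimum count 10), libraries were scaled by TMM, and MRS2578 was tested with the quasi-likelihood F-test and Benjamini-Hochberg adjustment over all genes at 0.05. The SE was derived from the F statistic. A prior count of 2 was used for log2 CPM. Donor was a block because both libraries of a donor come from 1 animal. Across genes, the 2 libraries of a donor deviated together from their condition means, with correlations of 0.602, 0.552, 0.458 and 0.562 for R07110, R12016, R02046 and R14143. The cultures of a condition come from separate animals. The lowest chi-square per degree of freedom between 2 libraries was 19.6, so none was a duplicate. Total counts were between 9231109 and 32790348, and 3 counts, the limit that a count of 0 allows, is 0.325 CPM in the smallest library and 0.0915 in the largest, for counting error only.

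On simulated counts, where 200 genes differed 3-fold and the dispersion was 0.05, the test of MRS2578 with the donor block recovered 199 among 12048 genes, with 207 called. With no gene changed it called 0 of 12039. The fitted differences of the subunits were smaller than 3-fold. Differences of their size were not simulated, so this recovery does not say how often the test would find them. DESeq2 1.42.0, its size factors, no filter, no block, each donor left out and other CPM scalings were alternatives.

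Gene positions, exon lengths and upstream windows come from the RefSeq annotation and sequence of Mmul_10. Named genes were every member, the 3 genes of each list with the highest mean CPM, NOXA1, CYBC1, a few cell type markers and untested oxidases (chosen after their values were seen), and the 3 genes most correlated with each member. The members and lists were chosen with earlier results of these data known. Some listed genes are counted but not reported here.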

Additional observations from a re-analysis of the deposited data

Results flagged for a closer look

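Among 15 sets of 4 samples examined, the levels of each subunit in each condition and the differences within donors, 1 had a sample far from the other 3. This was NCF4 with uLPS in R14143, at 136 CPM, whose gap to the nearest library was 0.864 of the range of the group. Chance gives about 1 such sample in 20 groups.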

How the results depend on the processing

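With the deposited labels the direction of CYBA, CYBB, NCF1 and NCF4 was the same in every alternative run. The log2 fold change of RAC2 turned to -0.015 without R02046 by edgeR and -0.020 by DESeq2, to -0.081 without R14143 and to -0.031 with the exchange, with a range from -0.081 to 0.082 over the donors left out. DESeq2 called 1 gene with the labels where edgeR called 0, and edgeR called 75 with the exchange. Without R02046, DESeq2 called 409 genes, among them 2 subunits, CYBB at -0.47 and NCF1 at -0.74. This alternative and edgeR's earlier quasi-likelihood estimation were chosen after seeing the data. With edgeR, leaving out any 1 donor called 0 genes and 0 subunits, so the 409 genes came with a change of both the donors and the test. Over the donors left out, these DESeq2 values included, CYBB was between -0.47 and -0.07, NCF1 between -0.74 and -0.12, and CYBA between -0.40 and -0.22, the last without R14143.

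With the R02046 libraries exchanged, leaving out 1 donor gave between 0 and 918 genes, with 0 without R07110, 5 without R12016 and 918 without R14143. The subunits called were between 0 and 2. Over these donors CYBA was between -0.32 and -0.13, the last without R14143, CYBB was between -0.58 and -0.41, NCF1 between -0.84 and -0.59, NCF4 between -0.041 and 0.011, and RAC2 between -0.13 and 0.031. NCF4 was at 0.0041 without R12016 and 0.011 without R14143, and RAC2 at 0.031 without R12016. DESeq2 called 583 genes and 2 subunits (CYBB -0.48, NCF1 -0.74). DESeq2's size factors gave NCF1 -0.74 (edgeR adjusted p = 0.0497) and no filter on low counts gave NCF1 -0.74 (edgeR adjusted p = 0.0455), with 1 subunit called in each. The earlier quasi-likelihood estimation called 39 genes. The cause was not tested.

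Without the replicate block, that is without pairing by donor, 0 genes were called under either assignment, and RAC2 was at 0.0029 with the exchange; the block changed no subunit's call. With the labels and no block, CYBB was -0.26, NCF1 -0.44, CYBA -0.32, NCF4 -0.24 and RAC2 0.03. Mean CPM under other scalings moved by less than the SD between donors. The lowest count of a subunit was 1043, and what depth and the number of donors each add to the error was not tested.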
